A study of Mus musculus with 15 samples.

Results

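Heads of mouse embryos with 1 intact copy of Twist1 in every cell were compared with heads that had 2. The comparison takes the 4 heads labelled het and the 3 labelled control, chosen by these labels alone, which is 7 of the 15 heads of the study. RNA of each head was hybridised to its own Illumina bead array at embryonic day 9.5, at 18 to 20 somites, in embryos of mixed C57Bl/6 x 129 x BALB/c descent. The study had 4 genotypes in all and was built to follow TWIST1 in the cranial mesoderm. Control heads were Twist1flox/+; Mesp1+/+, so 1 of their alleles was floxed, the other was wild-type, and Cre recombinase was missing. Het heads were Twist1flox/del; Mesp1+/+, with a floxed and a deleted allele and again no Cre. The floxed allele, which is flanked by Cre target sites and left whole without Cre, was thus common to all 7 heads. The remaining 8 heads served as a second, separate set of embryos for the same allele difference, as they share no embryo with the 7. Among them, 4 CM-Het heads were Twist1flox/+; Mesp1Cre/+ and 4 CM-CKO heads were Twist1flox/del; Mesp1Cre/+, with Cre made from the Mesp1 locus of early mesoderm. In both of these groups the mesoderm lineage is meant to lose its floxed copy. That leaves it the wild-type copy in CM-Het heads and no intact copy in CM-CKO heads. The second comparison thus differs from the first in the copies of the mesoderm and in the presence of Cre. The labels give neither litters nor the origin of the deleted allele, and p-values measure the spread between these embryos.

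TWIST1 is a transcription factor of the basic helix-loop-helix (bHLH) family, which binds DNA as a dimer at short E-box motifs, often together with a widely made E protein such as TCF3 or TCF12. ID proteins bind E proteins but not DNA and so compete for the same partners. In the embryonic head TWIST1 is made in the mesenchyme that comes from cranial mesoderm and neural crest, and it is known for keeping these cells mesenchymal. Loss of 1 copy causes Saethre-Chotzen syndrome in people, with early fusion of skull sutures, and Twist1 heterozygous mice are used as its model. At embryonic day 9.5 no suture has formed, so these arrays show the tissue before the skull vault exists.

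The 7 arrays were alike in mean raw signal and in their correlations. Mean raw signal ran from 341.0 to 412, and each array detected between 19280 and 19720 probes. Het 1 had no usable detection p-values and was given the average by rank of the other 14 arrays. Its detection count, and its detection threshold given next, thus do not bear on its quality. On the log2 scale used below, which is the background-corrected and quantile-normalised signal of a probe, the detection threshold lay between 4.71 and 4.75. Pairs of arrays correlated at r = 0.986 to 0.994, with a median of 0.990 within Het, 0.992 within Control and 0.990 between the groups. The first principal component of the 7 arrays carried 26.8% of the variance and did not part the groups: the Control heads, at -5.41, -7.31 and -8.72, lay among the Het heads, the lowest of which was at -13.3 and the next at 0.51. The arrays came from 3 slides, with Het 1 alone on slide 1. Slide 2 held Het 2, Het 3 and Control 1, and slide 3 held Het 4, Control 2 and Control 3. The first component followed the order of the slides. Het 1 lay highest, and the slide 2 heads came next, down to -5.41 in Control 1. The slide 3 heads lay lowest, from -7.31 in Control 2 to -13.3 in Het 4. Whether slide caused this order was not tested. Both sexes were present in each group, as Xist, the RNA that silences an X chromosome, was high in Het 4 (10.26) and Control 1 (10.40) and at most 4.68 in the other heads. Markers of head tissues were detected on all 7 arrays, among them Pdgfra, Prrx1 and Foxc1 of mesenchyme, Sox10 of neural crest, Otx2 of brain, Shh of endoderm and floor plate, and Cdh5 of endothelium. Foxd3, Epcam and Pax9, which mark neural crest, epithelium and pharyngeal endoderm, were detected on 0 of the 7 arrays, as were Myl7 and Myh6 of heart muscle and Hoxc9 and Hoxb9 of the trunk. Other markers were detected on some arrays: Tbx6 of the trunk on 4 of 7, Hoxc8 of the trunk on 3, Kdr of endothelium on 2 and Pax6 of brain on 1. A head mixes many tissues, so fewer cells of a type and less RNA per cell cannot be told apart.

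Twist1 (chromosome 12, 33957671 to 33959831, GRCm38.p6) was lower in every Het head than in every Control head. Its single probe was detected on all 7 arrays. Log2 levels in the Het heads were 8.62, 9.13, 8.80 and 9.32, and those in the Control heads were 9.87, 9.94 and 9.95. The highest Het head lay 0.55 below the lowest Control head. The Het mean was 8.97 ± 0.32 (SD, n = 4), and the mean of Control was 9.92 ± 0.04 (SD, n = 3). The difference of -0.95 puts Het at 51.6% of Control, with a 95% interval of 41.5% to 64.2%, and single Het heads ran from 40.7% to 66.1% of the Control mean. An exact two-sided permutation test gave p = 0.0286, the smallest that the 35 splits of the arrays allow. Across all genes, Twist1 had the lowest p of the comparison (limma, SE 0.15, unadjusted p = 9.5e-06, adjusted p = 0.111). The spread in that fit was estimated from all heads of the study together. When only the 7 arrays were fitted, Twist1 had rank 2 by p, after Gstm6 (limma adjusted p = 0.603). Over the alternatives run, the rank of Twist1 went from 1 to 53, the latter with replicate number and slide as blocks. The difference was -0.91 within slide 2 and -0.62 within slide 3, and without Het 1, the lowest head, Het stood at 55.9% of Control. Heads with the same allele difference in the second set had a Twist1 difference of -0.75 (CM-CKO minus CM-Het, exact permutation p = 0.0286, limma adjusted p = 0.0034). Mean Twist1 there was 9.16 in CM-CKO and 9.91 in CM-Het. The place of the probe within the gene, and so against the deletion, was not looked up here. Twist2, the closest relative of Twist1 and active in overlapping mesenchyme, stood at 7.33, 7.16, 7.49 and 7.11 in Het and 7.32, 7.56 and 7.18 in Control. These ranges overlapped, and the Twist2 difference of -0.08 ± 0.14 (SE) has a 95% interval from -0.39 to 0.22 on the log2 scale.

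**Figure D1:**
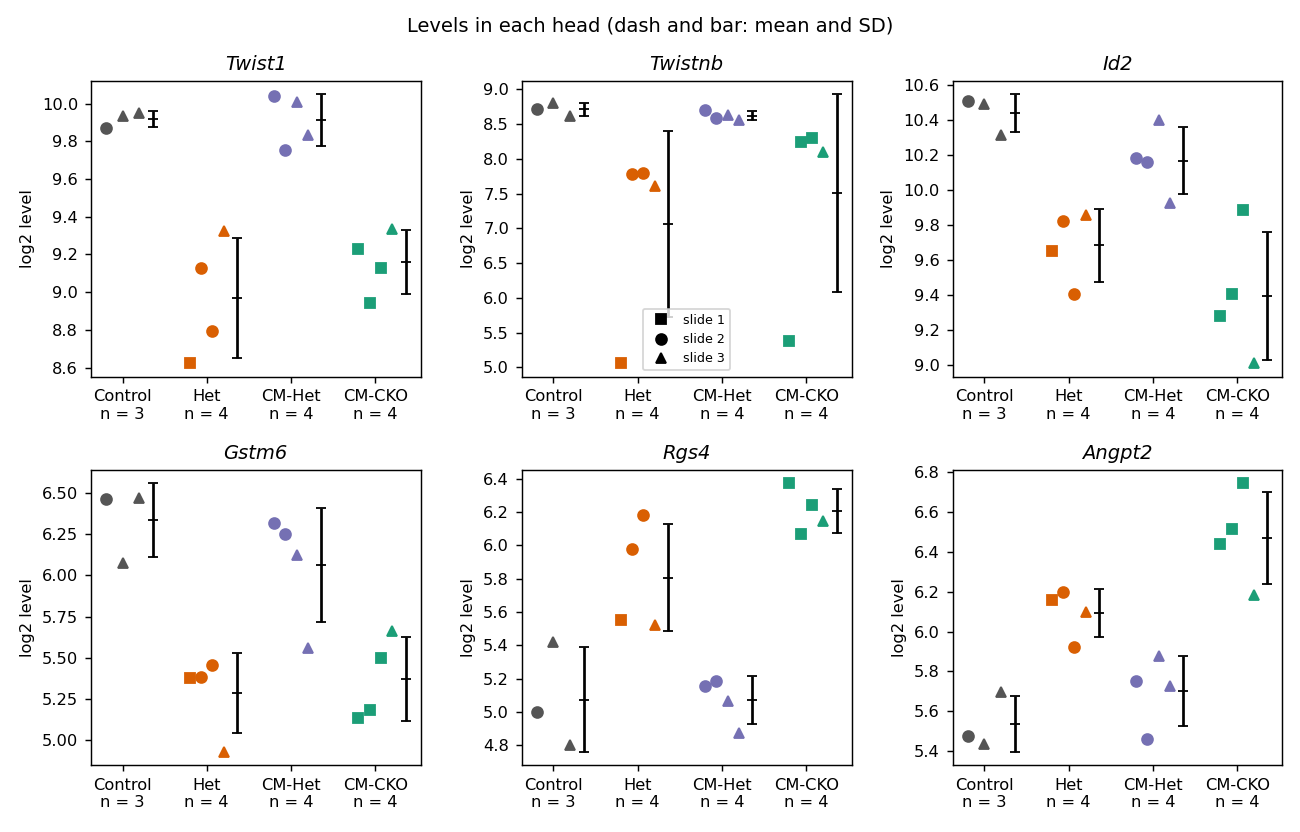
Log2 level of 6 genes in each of the 15 heads, by genotype group (horizontal axis), with the marker shape giving the slide and the dash and bar the mean and SD of the group. Twist1 lies at 8.62 to 9.32 in Het and 9.87 to 9.95 in Control, and Twistnb of Het 1 (5.06) stands far below the other Het heads.

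Beyond Twist1 itself, the Het heads differed little from Control heads, and no gene passed the test. Of 11625 genes tested, limma called 0 (0%) at adjusted p under 0.05, while 636 (5.47%) had an unadjusted p under 0.05, 343 higher (2.95%) and 293 lower (2.52%). With median scaling in place of quantile normalisation that split was 369 higher and 87 lower, so the balance of directions depends on the scaling. In 698 genes (6%) the levels of the groups did not overlap, with Het higher in 399 (3.43%) and lower in 299 (2.57%). The second lowest adjusted p was 0.240. The median size of a difference was 0.10 on the log2 scale, and the 99th percentile was 0.51.

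These differences came with narrow intervals for most genes. The spread behind the intervals was pooled over all groups of the study, not taken from Het and Control heads alone. The SE of the differences had a median of 0.14, and the 95% interval reached a median of 0.30 to each side. For 11387 genes (98.0%) the interval lay wholly inside a 2-fold difference in either direction, and for 9537 genes (82.0%) inside a 1.5-fold difference. These counts take in genes near background, such as Tmem18, which was not above background in any Het or Control head. At such levels the fixed offset added to all signals compresses differences. A narrow interval there, as in the gene lists below, does not bound the difference in RNA. Fitted differences of 1 or more on the log2 scale were seen in 9 genes, 3 higher and 6 lower. Several rested on 1 or 2 heads, and 3 such genes are given here, chosen after their values were seen. Plk1, a mitotic kinase, differed by 1.52, with Control 3 at 5.93 and all other heads at 10.24 to 10.70. Psmd8, a proteasome subunit, was at 6.73 to 7.66 in Het, and at 10.53, 10.75 and 6.94 in Control. Uap1, which makes an amino sugar donor, was at 8.73, 6.27, 6.34 and 9.23 in Het and at 8.93 to 9.02 in Control. Of the 9, the groups did not overlap for Gstm6 and Twistnb, which are described next.

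**Figure D2:**
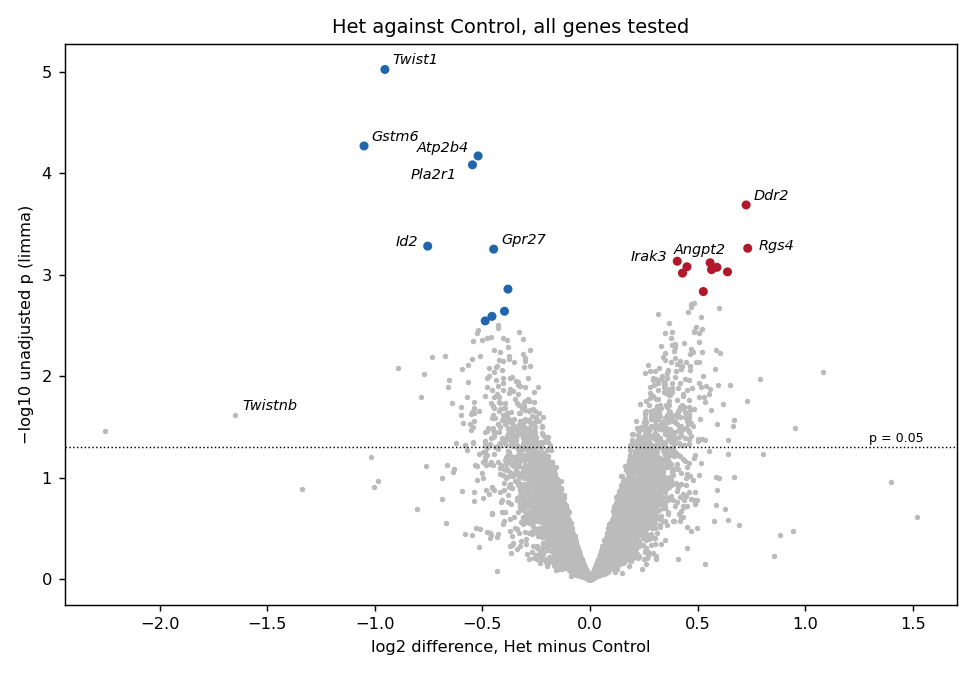
Each point is 1 of 11625 genes, with the log2 difference between Het and Control on the horizontal axis and minus log10 of the unadjusted limma p on the vertical axis; coloured points are the 10 genes of lowest p in each direction. Twist1 stands highest at a difference of -0.95, and Twistnb lies at -1.65 with a less extreme p.

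The genes of lowest p below Control, none of which passed, were led after Twist1 by Gstm6 (chromosome 3, 107938847 to 107953641), a glutathione transferase of the mu class. Log2 levels of Gstm6 were 5.38, 5.38, 5.46 and 4.93 in Het and 6.46, 6.07 and 6.47 in Control. All Het heads lay below all Control heads, and the 3 probes of the gene gave -1.05, -1.11 and -1.11. The difference of -1.05 ± 0.19 (SE, limma adjusted p = 0.240) puts Het at 48.3% of Control. Id2 (chromosome 12, 25093799 to 25096092), an inhibitor of E proteins, stood at 9.65, 9.82, 9.40 and 9.85 in Het and 10.50, 10.49 and 10.31 in Control, with a difference of -0.75 ± 0.17 (adjusted p = 0.747). That value comes from the brightest of 3 Id2 probes. The other probes gave -0.15 and 0.37, with levels that overlapped, and the mean of the 3 probes differed by only -0.18, so the 3 probes of Id2 do not give 1 answer. Both of these other probes, unlike the brightest, are among those where the deposited signals and the authors' value table differ.

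The other genes of lowest p on the lower side differed by less. Atp2b4, a calcium pump of the plasma membrane, lay between 4.78 and 4.91 in Het and 5.30 and 5.49 in Control (-0.52, adjusted p = 0.240). Pla2r1, a receptor for secreted phospholipase, lay between 4.62 and 4.76 in Het and 5.10 and 5.38 in Control (-0.55, adjusted p = 0.240), and was detected in 1 of the 4 Het heads. Both sit near the detection threshold, where the fixed offset added to all signals compresses differences. Paip1, which binds the poly(A)-binding protein in translation, lay between 8.76 and 9.28 in Het and 9.41 and 9.42 in Control (-0.46, adjusted p = 0.902). Ybx3, a cold shock domain protein that binds DNA and RNA, differed by -0.40, and Eri3, named as an exoribonuclease, by -0.49. For each of these, 1 of 3 probes had the opposite sign (0.02 for Ybx3 and 0.04 for Eri3). The remaining probe gave -0.56 for Ybx3 but only -0.09 for Eri3, and the mean of the Eri3 probes differed by -0.18. Gpr27, an orphan receptor, differed by -0.45, and by only -0.08 with its second probe. Mepe, a bone matrix phosphoprotein, was not above background in any Het head and at least 1.13-fold lower in Het than in Control. Fold bounds of this kind, here and below, compare group means with undetected levels set to the detection threshold. They allow for no spread between heads.

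Among the genes of lowest p above Control, Rgs4 (chromosome 1, 169741477 to 169747642), which shortens signalling by G proteins, stood at 5.55, 5.98, 6.18 and 5.52 in Het and 5.00, 5.42 and 4.80 in Control. The Rgs4 difference was 0.73 ± 0.17 (SE, limma adjusted p = 0.747), or 166% of Control. Angpt2 (chromosome 8, 18690263 to 18741562), a ligand of the vessel receptor TEK, stood at 6.16, 6.20, 5.92 and 6.10 in Het and 5.47, 5.44 and 5.70 in Control, a difference of 0.56 ± 0.13 (adjusted p = 0.747). In both genes the lowest Het head lay above the highest Control head by a small margin. Ddr2, a collagen receptor of mesenchyme, was above background in all 4 Het heads (5.01, 5.37, 5.14 and 5.28) and in none of the Control heads (4.42, 4.36 and 4.63). By such a bound on the means, Het was at least 1.38-fold higher (limma adjusted p = 0.478 for the fitted difference).

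Irak3, a brake on innate immune signalling, lay between 5.44 and 5.66 in Het and 5.04 and 5.24 in Control (0.41, adjusted p = 0.747). Mpo, an enzyme of myeloid granules, was at least 1.30-fold higher and Lemd1 at least 1.12-fold higher, both against Control heads not above background. Nrg1, a ligand of ERBB receptors that acts on neural crest and heart, differed by 0.53 and was detected in 1 of the 3 Control heads. Slc66a1, a lysosomal amino acid transporter, differed by 0.56, Smg5, which acts in nonsense-mediated decay, by 0.43, and 6330415B21Rik by 0.64. The second probe of Smg5 gave only 0.07. By the way they were chosen, the 20 genes of lowest p all had groups that did not overlap (6% of all genes), and 13 of the 20 were detected on all 7 arrays. Without background correction, as in the authors' value table, the differences of dim genes shrank, to -0.41 for Gstm6, 0.25 for Rgs4 and 0.22 for Angpt2.

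The second set of heads shows how far these values recurred in other embryos. Its p-values use the same estimate of spread per gene as those by which the genes were chosen. The counts that passed there are thus not fully independent of that choice. Between CM-CKO and CM-Het heads 1152 of 11625 genes passed (9.91%), 615 higher (5.29%) and 537 lower (4.62%). Of the 9 genes of lowest p on the lower side other than Twist1, 7 were below 0 there and 3 passed as lower: Gstm6 (-0.70, limma adjusted p = 0.0216), Id2 (-0.77, adjusted p = 0.0077) and Paip1 (-0.49, adjusted p = 0.0172). Of the 10 on the higher side, 6 were above 0 and 2 passed as higher: Rgs4 (1.14, adjusted p = 0.000427) and Angpt2 (0.77, adjusted p = 0.0014). Irak3 passed in the opposite direction (-0.51, adjusted p = 0.0024). The difference between the Het-Control and the CM-CKO-CM-Het contrasts passed for Irak3 (interaction -0.92, adjusted p = 0.0022), among 124 genes (1.07%) with such a call. Of the 20 genes 2 had such a call, the other being Ddr2 (interaction -1.12, adjusted p = 0.0161). Ddr2, the gene of lowest p on the higher side, was at -0.39 in the second set (adjusted p = 0.0879). Atp2b4 (-0.08), Pla2r1 (0.01), Gpr27 (0.06), Smg5 (0.06) and Mpo (0.09) were near 0 in the second set.

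Slide moved partly with the deleted allele in both sets, because slide 1 held Het 1 and 3 of the 4 CM-CKO heads and no head with a wild-type allele. With slide as a block, the second-set differences of Gstm6 (-0.52, adjusted p = 0.152), Paip1 (-0.31, adjusted p = 0.211) and Twist1 (-0.52, adjusted p = 0.0510) no longer passed, while Id2 (-0.94), Rgs4 (1.29), Angpt2 (0.57) and Irak3 (-0.46) still did. On slides 2 and 3 alone Angpt2 (0.42, adjusted p = 0.139), Gstm6 (-0.21, adjusted p = 0.580) and Paip1 (-0.17, adjusted p = 0.586) did not pass, while Twist1 did (-0.64, adjusted p = 0.0420). Averaged over its probes, Id2 was at -0.12 in the second set (adjusted p = 0.689). Red blood cell genes stood far higher in CM-CKO than in CM-Het heads, with a list median of 2.31. With the mean of that list as a covariate Twist1 (-0.79), Gstm6 (-0.81), Paip1 (-0.80), Rgs4 (1.12), Irak3 (-0.64) and Id2 (-0.17) did not pass, at adjusted p = 0.0656 to 0.758, and Angpt2 did (1.24, adjusted p = 0.0050). Of these 6 differences, only that of Id2 was much smaller than without the covariate. Over the wider group, 218 of the 293 genes with an unadjusted p under 0.05 on the lower side (74.4%) were below 0 in the second set, where 56.5% of all genes were. Of the 293, 22 passed as lower (7.51%, beside 4.62% of all genes) and 5 as higher. On the higher side 180 of 343 (52.5%) were above 0, where 43.5% of all genes were. Of the 343, 30 passed as higher (8.75%, beside 5.29% of all genes) and 9 as lower. Both comparisons used the same estimate of spread for each gene. A choice by low p favours genes of small spread, which pass more readily in the second set. How much of the excess over all genes comes from that choice was not tested.

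**Figure D3:**
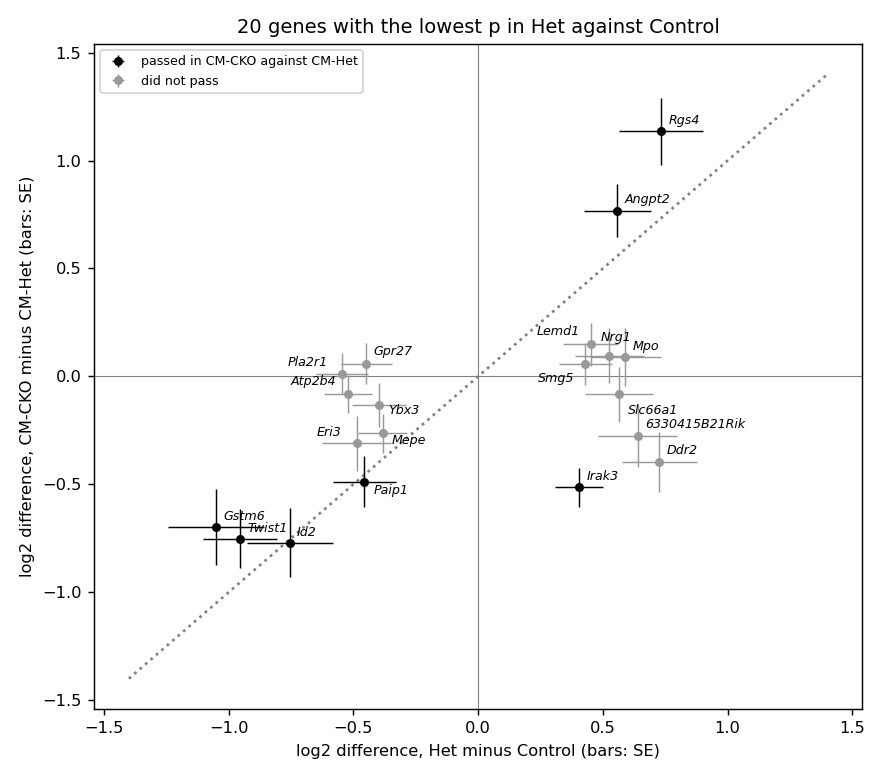
Log2 differences of the 20 genes of lowest p, Het minus Control (horizontal, bars SE) against CM-CKO minus CM-Het in other embryos (vertical, bars SE), with equality dotted and genes that passed in the second set in black. Twist1, Gstm6, Id2 and Paip1 lie below 0 on both axes, Rgs4 and Angpt2 above 0 on both, and Irak3 at 0.41 and -0.51.

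Genes close to Twist1 on chromosome 12 tend to be inherited together with the deleted allele. How far that linkage reaches in these embryos is not known. The deletion and the sequence linked to it cannot be told apart by these genotypes. Within 10 Mb of Twist1, 44 other genes were tested, of which 27 were below 0 and 17 above (55.2% of all genes were above 0), with a median of -0.05 beside 0.02 for all genes. Unadjusted p was under 0.05 for 5 of them (11.4%, beside 5.47% of all genes), and the groups did not overlap for 8 (18.2%, beside 6% of all genes). None passed after adjustment.

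Twistnb (chromosome 12, 33429624 to 33439380), which encodes a subunit of RNA polymerase I and lies 0.52 Mb before Twist1 by the midpoints of the genes, had the largest fitted difference near it. Levels of Twistnb were 5.06, 7.78, 7.80 and 7.61 in Het and 8.71, 8.81 and 8.61 in Control. Every Het head lay below every Control head, and Het 1 lay far below the rest. The difference was -1.65 ± 0.66 (SE, limma unadjusted p = 0.0241, adjusted p = 0.902). Without Het 1 it was -0.98, which puts the other 3 Het heads at 50.7% of Control. With the slide 1 arrays left out and slide as a block, Twistnb was the only gene to pass, at -1.005 (adjusted p = 0.0097). The second probe of Twistnb read 5.39, 7.59, 7.38 and 7.28 in Het and 8.01, 8.46 and 8.05 in Control, so both probes placed Het 1 lowest. In the second set Twistnb lay at 5.38, 8.25, 8.30 and 8.09 in CM-CKO and between 8.56 and 8.71 in CM-Het, again with 1 head, CM-CKO 1, far below the rest. The difference there was -1.12 (adjusted p = 0.275), and -0.41 without CM-CKO 1.

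Hdac9 (chromosome 12), a class II histone deacetylase with its midpoint 0.52 Mb after that of Twist1, stood at 6.38, 6.56, 6.31 and 6.48 in Het and 6.13, 5.97 and 5.65 in Control (0.51 ± 0.14, unadjusted p = 0.0028). Its second-set difference was -0.31, so the higher level was not seen there. Prkar2b, a regulatory subunit of protein kinase A that lies 1.95 Mb before Twist1, stood at 9.42, 9.30, 9.49 and 9.65 in Het and 10.06, 10.23 and 10.04 in Control (-0.64 ± 0.24). Its second-set difference was 0.20, and 0.48 without CM-CKO 1. Rnaseh1 (-0.20), Trappc12 (-0.45), Mboat2 (-0.50), Grhl1 and Id2, all over 5 Mb before Twist1, were the other genes whose groups did not overlap. For Trappc12 only 1 of 3 probes had that sign. Grhl1 was not above background in any Control head and at least 1.11-fold higher in Het. Of the nearest genes, Hbp1 (0.04), Nampt (0.11), Sypl (-0.05), Snx13 (0.10), Gm5434 (-0.21) and Bzw2 (0.02) had levels that overlapped, as had Tspan13, which was not above background in any Control head.

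**Figure D4:**
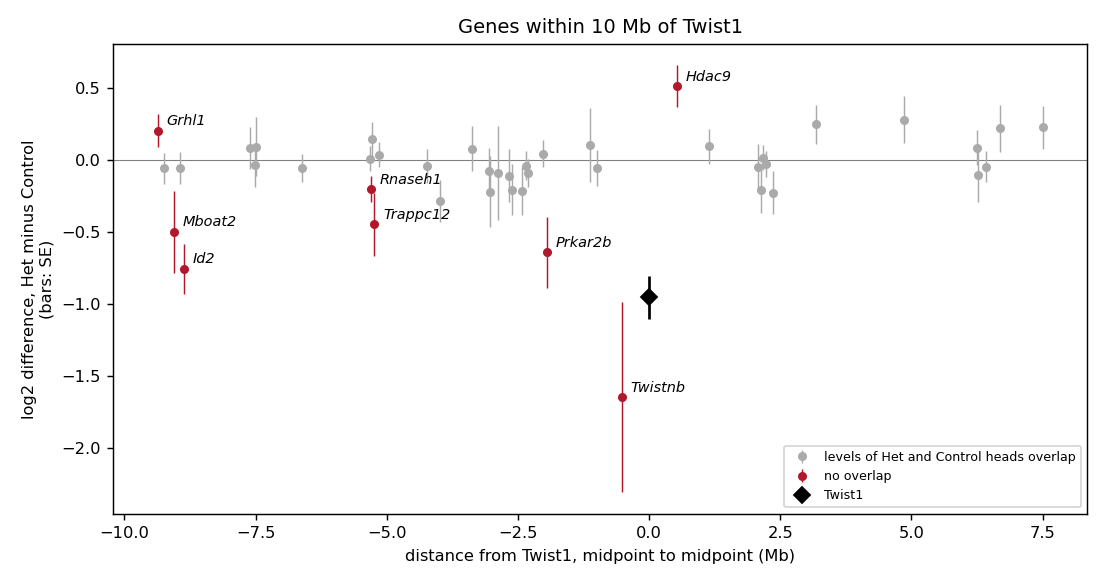
Log2 difference between Het and Control (vertical axis, bars SE) of 44 genes within 10 Mb of Twist1, by the distance between gene midpoints in Mb (horizontal axis), with red points for groups that did not overlap. Twistnb (-1.65) and Hdac9 (0.51) flank Twist1 (-0.95), and most other genes lie near 0.

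When all 8 heads with the deleted allele were set against all 7 with a wild-type allele, a count chosen after the values were seen, the levels of 27 genes (0.232% of 11625) did not overlap, 13 lower and 14 higher with the deleted allele. Of the 27, 3 lie on chromosome 12, Twist1, Twistnb and Id2, and these are all within 10 Mb of Twist1, where 45 genes were tested with Twist1 itself (6.67%). In all, 22 of the 27 had also passed between CM-CKO and CM-Het, beside 9.91% of all genes, but the same heads chose the 27, so nothing is read from that count. The other lower genes included Car3, a carbonic anhydrase (4.96 to 5.79 with the deletion, 5.91 to 6.15 without), and Cyp51, an enzyme of cholesterol synthesis (8.18 to 8.84 and 8.88 to 9.28). Higher genes included Rgs4 (5.52 to 6.37 and 4.80 to 5.42), Angpt2 (5.92 to 6.75 and 5.44 to 5.88), R3hdm2 (6.57 to 7.36 and 6.19 to 6.44) and Trim25, a ubiquitin ligase (6.87 to 7.45 and 6.48 to 6.71). These ranges nearly touch for most of the genes.

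The promoters of Twist1, Twistnb, Id2 and Gstm6 are shown because these genes were among the lowest against Control and because TWIST1 dimers bind E-boxes. Each sequence runs 5′ to 3′ on the strand of its gene, from 250 bases before to 50 after the listed start (RefSeq, GRCm38.p6), and capitals mark the E-box pattern CANNTG, which reads the same on both strands. Twist1 is chr12:33957421-33957720 (plus strand), Twistnb chr12:33429374-33429673 (plus), Id2 chr12:25096043-25096342 (minus) and Gstm6 chr3:107953417-107953716 (minus, 1 of 3 listed starts).
Twist1: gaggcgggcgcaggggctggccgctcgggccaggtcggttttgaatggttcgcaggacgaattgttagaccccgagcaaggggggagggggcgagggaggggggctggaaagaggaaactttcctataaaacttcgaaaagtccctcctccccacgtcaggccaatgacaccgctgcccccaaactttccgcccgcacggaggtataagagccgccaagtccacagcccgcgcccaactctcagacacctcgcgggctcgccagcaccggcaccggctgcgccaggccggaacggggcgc
Twistnb: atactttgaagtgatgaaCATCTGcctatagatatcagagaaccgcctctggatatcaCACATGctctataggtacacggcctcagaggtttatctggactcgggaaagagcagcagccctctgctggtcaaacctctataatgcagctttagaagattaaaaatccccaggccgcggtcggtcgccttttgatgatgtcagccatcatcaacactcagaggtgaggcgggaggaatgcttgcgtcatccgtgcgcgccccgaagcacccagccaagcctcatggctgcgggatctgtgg
Id2: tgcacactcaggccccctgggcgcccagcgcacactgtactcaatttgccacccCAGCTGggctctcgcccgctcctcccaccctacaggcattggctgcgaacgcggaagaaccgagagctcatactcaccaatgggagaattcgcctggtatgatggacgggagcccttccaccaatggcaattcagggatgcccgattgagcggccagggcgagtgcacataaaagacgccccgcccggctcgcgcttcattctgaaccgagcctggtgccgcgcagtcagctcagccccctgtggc
Gstm6: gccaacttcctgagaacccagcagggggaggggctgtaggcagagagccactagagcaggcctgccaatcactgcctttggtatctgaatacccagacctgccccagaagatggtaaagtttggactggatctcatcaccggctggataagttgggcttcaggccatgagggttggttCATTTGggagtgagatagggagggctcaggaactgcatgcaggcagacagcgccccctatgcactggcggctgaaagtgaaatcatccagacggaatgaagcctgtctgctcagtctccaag
The Twist1 window holds 0 such boxes. Twistnb holds 2, CATCTG 232 and CACATG 192 bases before the start, Id2 holds CAGCTG 196 bases before it, and Gstm6 holds CATTTG 72 bases before it, each counted to the first base of the box. Among 32851 promoters of 300 bases, 72.3% hold at least 1 CANNTG and 39.6% at least 2, and 17.2% hold CATCTG or its reverse CAGATG. Boxes in these windows are thus common, and none of the boxes overlap.

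Gene lists for the pathways and cell types of the head gave counts near those of all genes. Over 31 lists, 450 distinct genes were tested, of which 22 (4.89%) had an unadjusted p under 0.05, 13 higher and 9 lower, beside 5.47% of all genes. No member of any list passed after adjustment by limma. List medians ran from -0.13 to 0.21 on the log2 scale, beside 0.02 for all genes. With median scaling 30 of the 31 medians were above 0 and the median of all genes was 0.10, so the sign of a small median is not given as a direction below.

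**Figure D5:**
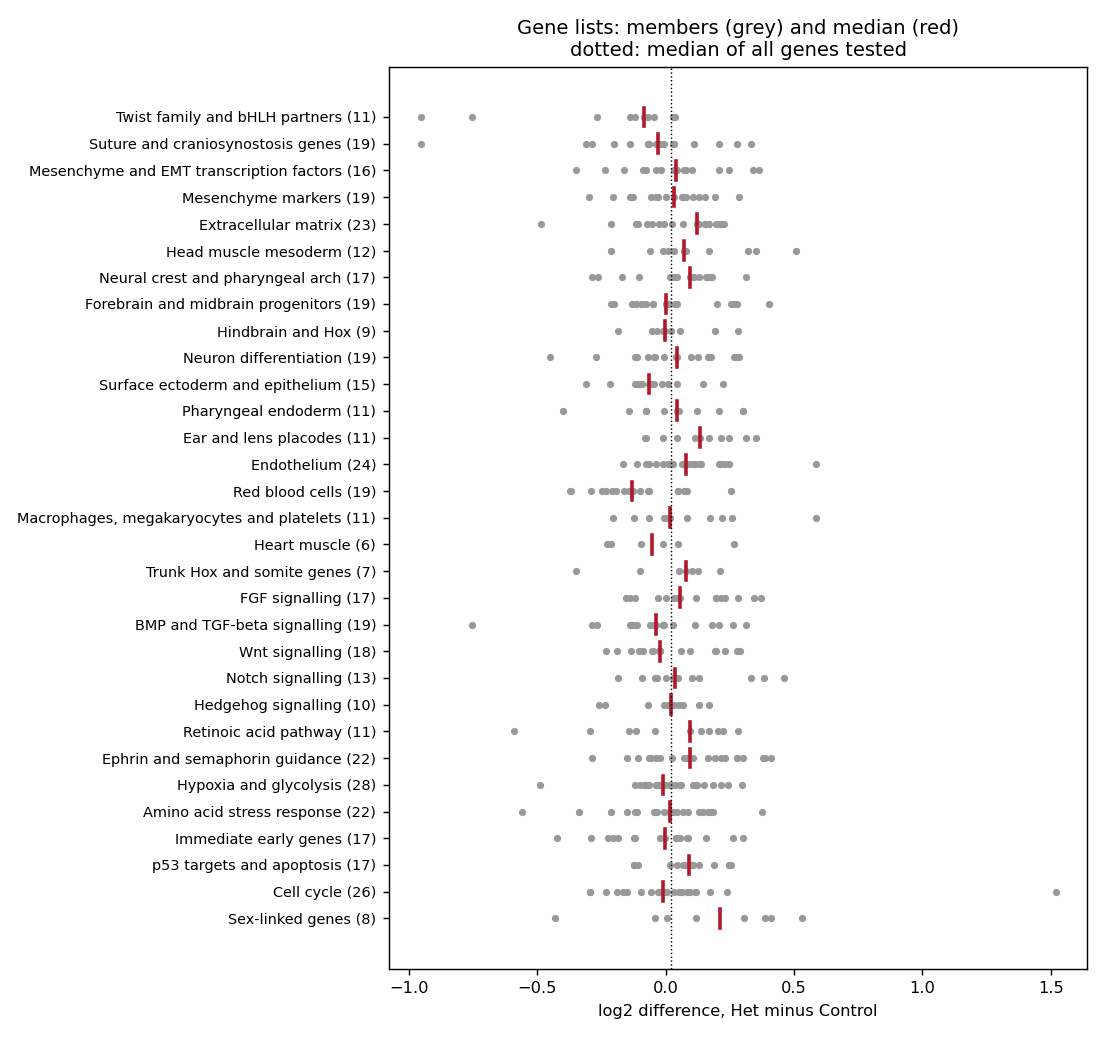
Log2 difference between Het and Control (horizontal axis) of the members of 31 gene lists (grey points, number tested in brackets), with the list median in red and the median of all genes dotted. Medians stay within -0.13 and 0.21, and Twist1 (-0.95) and Id2 (-0.75) are the points farthest left.

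Among the bHLH partners of TWIST1, 11 of 14 listed genes were tested, 0 higher and 2 lower at unadjusted p under 0.05, which are Twist1 and Id2, and the median was -0.08. Id1, a second inhibitor of E proteins, lay at 10.21 to 10.36 in Het and 10.40, 10.55 and 10.65 in Control, without overlap (-0.27 ± 0.13, unadjusted p = 0.0619). Id3 (-0.14) and Id4 (-0.04) overlapped. Of the E proteins, Tcf3 differed by -0.12, Tcf12 by -0.07 and Tcf4 by 0.03. Levels of Tcf12 were 9.05, 8.38, 8.83 and 8.82 in Het and 8.79 to 8.87 in Control.

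Genes tied to skull sutures and their early fusion gave 19 tested members, 0 higher and 1 lower, which is Twist1, and a median of -0.03. Efnb1, an ephrin of tissue boundaries, was at 8.87 to 9.53 in Het and 9.45 to 9.54 in Control (-0.28 ± 0.17), and Erf, a repressor of the ERK pathway, differed by -0.31 ± 0.19. Jag1, a Notch ligand, differed by 0.33 ± 0.21 and En1, a patterning factor of midbrain and suture, by -0.20 ± 0.12. All 4 overlapped. For 18 of the 19 the 95% interval lay inside a 2-fold difference, the other being Twist1. The growth factor receptors Fgfr1, Fgfr2 and Fgfr3 differed by 0.03, -0.03 and -0.14.

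Mesenchyme genes, where Twist1 is active, stayed close to Control. Of 16 mesenchyme and EMT transcription factors 1 was higher and 0 lower, with a median of 0.04, and all 16 intervals lay inside 2-fold. The higher one was Osr1, a zinc finger factor of intermediate and head mesenchyme, at 4.64 to 4.97 in Het and 4.36 to 4.61 in Control, where no head was above background. Zeb2, a repressor of epithelial genes, differed by 0.25 ± 0.12 (unadjusted p = 0.0603). Of 19 mesenchyme markers 0 passed even the unadjusted threshold (median 0.03, all 19 intervals inside 2-fold). Pdgfra, a growth factor receptor of mesenchyme, read 9.14 to 9.23 in Het and 8.92 to 9.12 in Control (0.15 ± 0.11), and Lum, a small proteoglycan, read 8.49 to 8.80 and 8.66 to 8.84 (-0.14 ± 0.10). In the second set Pdgfra (-0.56) and Lum (-1.31) fell, and the interaction passed for both (adjusted p = 0.0393 and 0.000365). Of 23 matrix genes 0 were past the unadjusted threshold, with a median of 0.12. Among these, Lamc1, a laminin chain, read 9.44 to 9.69 in Het and 9.31 to 9.41 in Control (0.21 ± 0.11).

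Head muscle mesoderm had 12 tested genes, 1 higher and 0 lower, with a median of 0.07. The higher gene was Tbx1, a T-box factor of pharyngeal and head muscle mesoderm, at 7.43, 8.11, 7.92 and 7.70 in Het and 7.29, 7.41 and 7.15 in Control (0.51 ± 0.15, unadjusted p = 0.0037, adjusted p = 0.902). All Het heads lay above all Control heads, the closest pair being 7.43 and 7.41. In the second set Tbx1 differed by 0.36 (adjusted p = 0.111). Six2 (0.32) and Six4 (0.35), factors of the Eya-Six network, overlapped. Neural crest and arch genes had 17 tested members, 0 higher and 1 lower. That gene was Tfap2a, an early crest and ectoderm factor, at 8.97 to 9.14 in Het and 9.23 to 9.41 in Control (-0.26 ± 0.10, unadjusted p = 0.0179). The Tfap2a probe used is among those where the deposited signals and the authors' value table differ. Sox10, made in migrating crest and the ear vesicle, differed by 0.31 ± 0.17 and overlapped.

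Nervous tissue and epithelia were also close to Control. Forebrain and midbrain progenitors (19 tested, median 0.0015), hindbrain and Hox genes (9, median -0.0034) and neuron differentiation genes (19, median 0.05) had 0 members past the unadjusted threshold. The widest of these were Lhx1 (-0.45 ± 0.23) and Nkx2-1, a factor of ventral forebrain and thyroid (0.40 ± 0.26). Surface ectoderm had 15 tested genes and 1 lower, Grhl3, which acts in neural tube closure (-0.31 ± 0.14, unadjusted p = 0.0404), with levels that overlapped. Pharyngeal endoderm had 11 and 1 higher, Gata3 (0.30 ± 0.12, unadjusted p = 0.0271), at 6.43 to 6.59 in Het and 6.10 to 6.36 in Control. Ear and lens placodes had 11 tested and 0 past the threshold (median 0.13).

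Vessel and blood genes bear on the makeup of the heads. Of 24 endothelial genes 0 were past the unadjusted threshold, 18 were above 0, and the median was 0.08, with 23 intervals inside 2-fold. Esm1, made by sprouting vessel tips, read 5.13 to 5.67 in Het and 4.62 to 5.08 in Control (0.58 ± 0.33). Of 19 red blood cell genes 0 were past the threshold and 14 were below 0, with a median of -0.13. The mean level of that list was 8.59, 8.82, 9.03 and 8.81 in the Het heads and 9.05, 9.08 and 8.66 in the Control heads, which overlap. Hbb-bh1, an embryonic globin, read 13.38 to 13.74 in Het and 13.64 to 13.71 in Control. In the second set, where the median of this list was 2.31, Hbb-bh1 differed by only -0.02. Its level is thus not read as blood content. Macrophage and platelet genes (11 tested, median 0.02), heart muscle genes (6, median -0.05) and trunk genes (7, median 0.08) had 0 past the threshold.

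Signalling pathways had few members past the unadjusted threshold. FGF signalling had 17 tested and 1 higher, Dusp6, a phosphatase induced by FGF, at 11.45 to 11.76 in Het and 11.35 to 11.45 in Control (0.23 ± 0.11, unadjusted p = 0.0489). BMP and TGF-beta signalling had 19 tested, with Ltbp1, which stores latent TGF-beta, higher (0.31 ± 0.11, unadjusted p = 0.0136) and Id2 lower. Wnt signalling had 18 tested and 2 higher, the secreted inhibitors Dkk3 (0.28 ± 0.12) and Notum (0.29 ± 0.13). Notch signalling had 13 tested and 2 higher, the ligand Jag2 (0.46 ± 0.18) and the receptor Notch3 (0.38 ± 0.17), both with overlap. Hedgehog signalling had 10 tested and 0. The retinoic acid pathway had 11 tested and 1 lower, Aldh1a3, a retinoic acid synthase, at 9.56 to 9.68 in Het and 9.97, 10.76 and 9.95 in Control (-0.59 ± 0.24, unadjusted p = 0.0290). Ephrin and semaphorin guidance had 22 tested and 2 higher, Sema3f (0.39 ± 0.16) and the semaphorin receptor Plxnd1 (0.30 ± 0.13).

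Stress and growth genes had few members past the unadjusted threshold in Het heads. In the second set the stress lists had many that passed, beside 9.91% of all genes, and the cell cycle list had 1. Of 28 hypoxia and glycolysis genes 1 was higher, Plod2, a collagen lysyl hydroxylase (0.30 ± 0.11, unadjusted p = 0.0121), and 1 lower, P4ha1, a collagen prolyl hydroxylase (-0.49 ± 0.23, unadjusted p = 0.0473). Their median was -0.01 with all 28 intervals inside 2-fold, while 24 of the 28 passed between CM-CKO and CM-Het with a median of 0.79. Of 22 amino acid stress genes 1 was higher, Slc3a2, and 1 lower, Phgdh, with a median of 0.02, while 15 passed in the second set. Immediate early genes had 17 tested and 1 lower, Ier3 (-0.42 ± 0.20, unadjusted p = 0.0470), which was 2.21 higher in the second set, where 9 of the 17 passed. The interaction passed for Ier3 (2.63, adjusted p = 0.000101), for Stc2, a hypoxia-induced hormone (1.73, adjusted p = 0.000887), and for Vldlr, a lipoprotein receptor (1.54, adjusted p = 0.000654). p53 targets had 17 tested and 0 past the threshold (median 0.09), and 4 passed in the second set. Cell cycle genes had 26 tested and 1 lower, the replication helicase subunit Mcm3 (-0.29 ± 0.13, unadjusted p = 0.0382), with a median of -0.01, and 1 of the 26 passed in the second set.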

How the data were processed

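The authors deposited, for each array, intensity values per probe that were neither normalised nor background-subtracted, judging by their values. The scanner software was not named. Per the file headers, a detection p-value stood beside each signal. Its rows did not follow those of the signals (74.4% to 75.6% of entries were out of place by over 0.05), so each p-value was re-attached by rank. Beside Het 1 the column held other values (1 column left unused), and its p-values were the average by rank of the other 14 arrays. The authors' deposited value table held log2 signals, quantile-normalised to judge by their values. It matched the signals within 0.02 in 42477 of 45281 probes, and in 2804 it did not, and these do not include the probes used for the 20 genes of lowest p. They do include, among others, the probes used for Tfap2a, Erf and Nampt. It served as an alternative.

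Signals were background-corrected with limma 3.58.1 in R 4.3.3 (nec, offset 16), quantile-normalised and put on a log2 scale. Probes detected at p under 0.05 on at least 3 arrays were kept (21869), and each gene was read by its brightest kept probe (11625 genes). Gene names came from the platform annotation and positions from RefSeq (GRCm38.p6). The 15 arrays of 4 genotypes were fitted together (lmFit, contrasts.fit, eBayes, 11 residual degrees of freedom), with Benjamini-Hochberg adjustment over all genes. Named genes were Twist1, Twist2, the 10 of lowest p in each direction, the neighbours of Twist1 and the members of lowest p of each list. Members, lists and rules were chosen with earlier results of these data known. The fit was checked on simulated data. Figures were drawn with matplotlib 3.10.9. Precision is limited by the number of arrays and by how far signals stand above background.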

Additional observations from a re-analysis of the deposited data

Results flagged for a closer look

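Among 161 genes whose Het levels were examined, 12 had 1 Het head set apart from the other 3, where chance alone marks about 1 in 20 groups. Of the genes of lowest p, Gstm6 in Het 4 read 4.93 against 5.38 to 5.46 in the others, Slc66a1 in Het 4 read 5.77 against 6.14 to 6.17, and Smg5 in Het 2 read 6.59 against 6.34 to 6.37. Het 3 was low for Bgn, a small proteoglycan (9.58 against 9.84 to 9.90), for Six4 (4.47 against 5.43 to 5.49) and for Hoxb1, a hindbrain Hox gene (4.60 against 6.13 to 6.31). Het 1 was high for Cdh1 (7.89 against 7.61 to 7.63) and low for Trim10, a red cell gene (6.21 against 6.90 to 7.02). Het 4 was low for Hoxa7 (4.65 against 4.74 to 4.75) and for Eif2s3y, a Y-linked gene (4.21 against 8.43 to 8.91), the head in which Xist was high. Het 2 was high for Dkk3 (7.94 against 7.83 to 7.85) and for Ier2, an immediate early gene (5.80 against 4.75 to 4.84).

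For 14 named genes the difference between CM-CKO and CM-Het departed from that between Het and Control in the test of the interaction (limma, adjusted p under 0.05). Values are log2 interactions, the CM-CKO minus CM-Het difference less the Het minus Control difference. Above 0 were Pf4, a platelet factor (3.22), Trim10 (3.15), Ier3 (2.63), Stc2 (1.73), Vldlr (1.54), Adm, a hypoxia-induced peptide (1.29), Acta2, a smooth muscle actin (1.26), and Apob, a lipoprotein (1.05). Below 0 were Gja4, an arterial connexin (-2.004), Lum (-1.17), Ddr2 (-1.12), Irak3 (-0.92), Tek, the angiopoietin receptor (-0.86), and Pdgfra (-0.71). In the Het heads these genes lay between -0.42 and 0.73 from Control on the log2 scale. Slide 1 holds 3 of the 4 CM-CKO heads and no CM-Het head, and beside 124 genes in all with such a call there were 263 with slide as a block and 18 with the red blood cell list as a covariate. The Control means of Ddr2 (4.47) and Adm (4.51) lay below the detection threshold, so their interactions rest in part on levels with only a bound.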

How the results depend on the processing

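The labels do not say whether the replicate numbers pair the heads. Deviations of same-numbered Het and Control heads correlated at 0.04, 0.06 and -0.03. Those of the other pairs correlated at -0.10 to 0.06, which does not settle the question. With the replicate block limma called 0 genes between Het and Control (Twist1 -1.004, adjusted p = 0.258), and with slide added to it 0 (Twist1 -0.71, adjusted p = 0.799). The count was 1 with a trended, robust spread (Twist1, -0.95, adjusted p = 0.0116), 1 on slides 2 and 3 with slide as a block (Twistnb), and 0 to 1 leaving out each head in turn (Twist1 without Het 4, -1.07, adjusted p = 0.0177); under the other alternatives run it was 0. Over all of these, 408 to 1046 genes had an unadjusted p under 0.05. Fitting all kept probes, an alternative chosen after seeing the data like the within-slide values, gave 0 and 1503. Leaving out 1 head put the Twist1 difference between -1.07 and -0.84, and exact p at 0.0667 or 0.1, the smallest such splits allow. The sign of the 20 genes of lowest p, of Twistnb, Prkar2b and Hdac9 stayed as reported in 23 of 23 settings. The groups of all these genes did not overlap, so leaving out a head or comparing within a slide could not change the sign. The other settings refit the same heads from which the genes were chosen, so nothing is read from that count. Calls between CM-CKO and CM-Het numbered 399 with the replicate block and slide, and 171 with the red blood cell list as a covariate. Interaction calls numbered 263 with slide as a block, 1054 on slides 2 and 3, 18 with the red cell covariate, and 59 to 203 leaving out each Het or Control head. The cause of these shifts was not tested. No result changed sign past the threshold. Genes near the detection threshold carry compressed differences.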
